A study of Mus musculus with 16 samples.

Results

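The Mef2 genes Mef2a, Mef2b, Mef2c and Mef2d were followed over cultured mouse neural crest stem cells that were either left unprimed or primed towards glia, autonomic neurons or mesenchyme. Mef2c was selected on its measured intensity, which was low in the neuron-primed arrays, and the other 3 genes were chosen as its paralogs. All probe sets whose annotation names only 1 of these genes were taken, which gave 15 of the 45101 probe sets of the table: 6 for Mef2a, 1 for Mef2b, 5 for Mef2c and 3 for Mef2d. Another probe set is annotated to both Borcs8 and Mef2b and was left out.

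The study placed 16 Affymetrix arrays in 4 groups of 4: unprimed neural crest stem cells (NCSCs), and the same kind of cell primed to glia (Glia), to neurons (Autonomic) or to mesenchyme (Mesenchymal). The cells are described as primary mouse material, the unprimed ones as migratory, all grown in a crest stem cell medium. Priming was by growth factors that direct fate, and the labels of the unprimed arrays carry the same treatment text, so what those cells received is not settled. The sources used here do not name the factors, the length of exposure, the age or strain of the animals or where replicates came from. Tests below therefore weigh differences against the spread among these arrays alone, some of which may be technical. Of 13 crest markers, such as Sox10, Ngfr and Erbb3, 12 were measured, and 9 to 10 of them had group means more than 2 log2 units above the array median in every group.

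MEF2 proteins are transcription factors that share a MADS box and an adjoining MEF2 domain, bind an A/T-rich DNA element as dimers, and switch between repression and activation with their cofactors. Class IIa histone deacetylases hold them in a repressive state, and calcium and MAP kinase signals release or activate them. In the neural crest, Mef2c is known for its part in craniofacial development and in the melanocyte lineage, and its paralogs are expressed more broadly.

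The element these proteins bind is shown here where it occurs near the start of a member or of a gene described as a MEF2 target, because it is what the family reads in DNA. RefSeq promoter windows (GRCm38.p6, 250 bases before to 50 after an annotated start) were searched for the 10-base MEF2 consensus, whose reverse complement also matches it, so both strands are covered. Among the 6 windows of the 4 members, 1 held a match, that of Mef2a, whereas none of the 3 windows of Mef2c did. Of all 32851 windows, 1047 (3.19%) held one. Of the 27 windows of target genes, 4 did, at Jun, Klf2, Xirp2 and Mmp10. The matches of Mef2a and of 2 targets, with the consensus in capitals, read as follows, 5′ to 3′ on the strand of the gene.
Mef2a (chr7:67372841-67372870, minus strand): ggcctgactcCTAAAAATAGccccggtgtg
Jun (chr4:95052236-95052265, minus strand): acatcatgggCTATTTTTAGggattgactg
Klf2 (chr8:72318934-72318963, plus strand): tataccgcggCTAAATTTAGgctgagcccg
The match starts at position -2 from the annotated start of Mef2a, at -33 in Jun and at -118 in Klf2. A match describes these letters only, and no binding was measured.

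Array medians lay between 3.05 and 3.15 on the log2 scale of the deposited intensities, on which all levels are given. Array correlations were 0.896 to 0.949 within groups and 0.898 to 0.948 between them, and no arrays were identical. The 3' to 5' log2 ratio of the Gapdh control was 2.35 ± 0.187 (SD, n = 4) in NCSCs, 2.95 ± 0.391 in Glia, 2.85 ± 0.242 in Autonomic and 2.96 ± 0.222 in Mesenchymal arrays. On the leading principal component (12.4% of the variance) Autonomic replicate 1 lay at -54.87, among the NCSCs arrays (-68.19 to -31.25), while Autonomic replicates 2 to 4 lay between 39.4 and 87.8.

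Mef2c RNA was high in 3 groups and low in all neuron-primed arrays. In its brightest probe set, 1451506_at, the NCSCs arrays 1 to 4 read 7.45, 7.54, 7.61 and 6.18. The Glia arrays read 6.71, 8.31, 8.21 and 6.53, and the Mesenchymal arrays 7.49, 7.57, 8.40 and 7.91. The Autonomic arrays read 3.49, 3.06, 3.20 and 3.09. Every Autonomic array was thus below every array of the other groups, and Autonomic replicate 1, which lay among the NCSCs arrays on the leading principal component, was low as well.

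The group means of this probe set were 7.84 ± 0.414 (SD, n = 4) in Mesenchymal, 7.44 ± 0.952 in Glia, 7.19 ± 0.68 in NCSCs and 3.21 ± 0.197 in Autonomic arrays. In this order the steps between the upper 3 groups were smaller than their spread, and the step down to Autonomic arrays was larger. The difference of Autonomic from NCSCs arrays was -3.98 (SE 0.42), a 15.8-fold lower intensity, and the differences from Glia and Mesenchymal arrays were -4.23 and -4.63. These are descriptions with no test, since Mef2c was chosen for them. Without Autonomic replicate 1 the difference from NCSCs was -4.08. In bulk RNA, fewer cells that express a gene and less RNA per cell cannot be told apart.

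The same arrays were low in the other Mef2c probe sets. Probe set 1451507_at read 1.85, 4.10, 2.43 and 4.51 in Autonomic arrays, against 6.25 to 7.51 in NCSCs, 6.35 to 7.44 in Glia and 6.57 to 7.79 in Mesenchymal arrays. Probe set 1421027_a_at read 2.88, 2.86, 2.47 and 2.79 in Autonomic arrays, against 5.11 to 6.73, 4.79 to 6.65 and 5.08 to 5.62. Both sets kept Autonomic arrays below all others, with differences from NCSCs of -3.62 (SE 0.52) and -3.18 (SE 0.36).

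The dimmer Mef2c probe sets showed smaller gaps. Probe set 1424852_at averaged 3.14 ± 0.583 (SD, n = 4) in Autonomic and 4.56 ± 0.24 in NCSCs arrays, a difference of -1.42. Its Glia arrays, at 3.60 to 6.46, overlapped with Autonomic arrays, at 2.40 to 3.80. Probe set 1421028_a_at averaged 2.94 ± 0.239 in Autonomic and 4.16 ± 0.855 in NCSCs arrays, a difference of -1.23, and here Autonomic arrays (2.67 to 3.22) overlapped with NCSCs arrays (3.20 to 5.14).

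All 5 Mef2c probe sets were therefore lower in Autonomic than in NCSCs arrays, and 4 of them without overlap, where 2.93% of all probe sets were lower without overlap. Against Glia arrays 3 of the 5 were lower without overlap (1.52% of all probe sets), and against Mesenchymal arrays 4 (2.2%). These 5 share a gene and the same arrays and are not independent of each other. The Autonomic group means of the 5, between 2.75 and 3.22, lay around the array medians, where signal over background was not measured. The size of the gap therefore depends on how dim values are treated, and with 16 added to each intensity before the logarithm the difference in 1451506_at was -2.70.

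**Figure D1:**
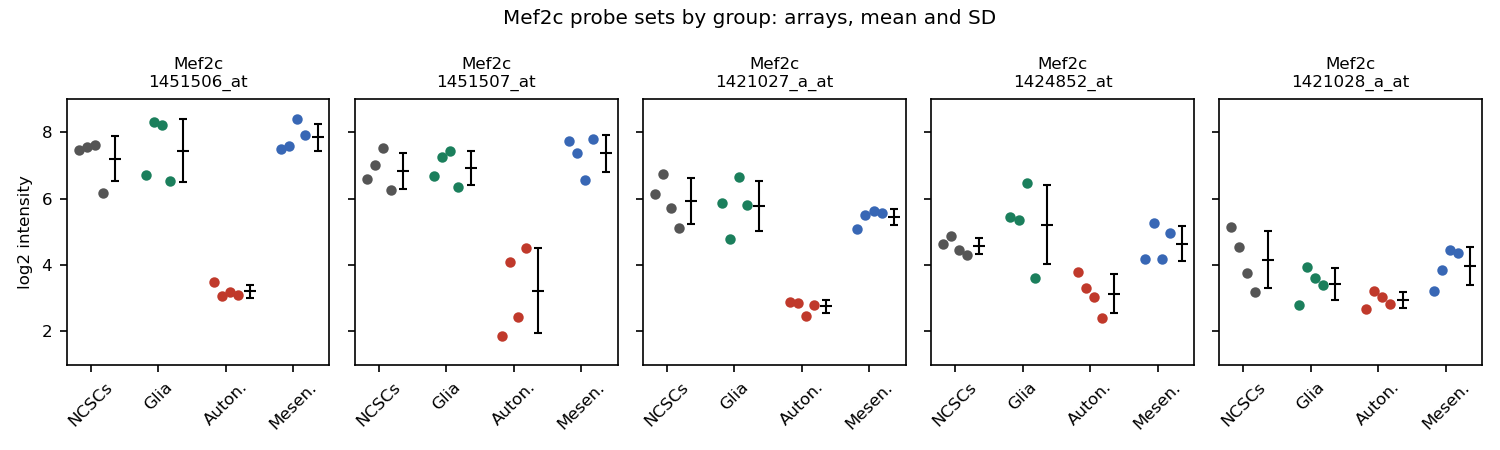
Log2 intensity of the 5 Mef2c probe sets (panels) in NCSCs, Glia, Autonomic and Mesenchymal arrays; points are arrays, and the bar beside them is the mean with its SD (n = 4). In 3 panels all Autonomic arrays lie below every other array, and in 1424852_at and 1421028_a_at they overlap with arrays of another group.

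The brighter probe sets of Mef2a and Mef2d, which had room to fall, did not share this pattern. The brightest Mef2a probe set, 1425426_a_at, read 6.07, 6.08, 6.04 and 5.78 in NCSCs and 6.75, 6.52, 5.15 and 8.15 in Autonomic arrays. Autonomic replicate 3 was below the NCSCs arrays and the other Autonomic arrays were above them. The means were 5.99 ± 0.143 (SD, n = 4) and 6.64 ± 1.23, a difference of 0.65 (SE 0.52) that was not tested. Over the 6 Mef2a probe sets the difference of Autonomic from NCSCs arrays ran from -0.29 to 0.69, with 1 below 0 and 5 above.

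Mef2d, a broadly expressed paralog, overlapped between neuron-primed and unprimed arrays in each of its 3 probe sets. Its brightest probe set, 1421388_at, read 5.07, 5.16, 5.08 and 5.29 in NCSCs and 5.35, 5.92, 5.12 and 6.28 in Autonomic arrays. Of the Autonomic arrays, 3 lay above all NCSCs arrays and 1 among them. The means were 5.15 ± 0.0998 (SD, n = 4) and 5.67 ± 0.529. The other 2 Mef2d probe sets differed by 0.48 and -0.02, each less than its SE (0.80 and 0.28).

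Mef2b stayed close to the array median in all groups. Its only probe set, 1421541_a_at, averaged 3.34 ± 0.335 (SD, n = 4) in NCSCs, 3.36 ± 0.288 in Glia, 3.39 ± 0.194 in Autonomic and 3.23 ± 0.214 in Mesenchymal arrays. The array ranges of the 4 groups overlapped, and no order of the groups could be read from them.

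Across the 10 probe sets of the paralogs, none had Autonomic arrays apart from NCSCs arrays without overlap in either direction (background 5.17% of all probe sets). No such set among 10 is near that background. In 1452347_at, 1427186_a_at and 1421252_a_at of Mef2a, 1434487_at of Mef2d and that of Mef2b, NCSCs means were only 2.53 to 3.34. These lay near or below the array median, so a fall like that of Mef2c could hardly have been measured there. The paralogs' probe sets varied among themselves: that of Mef2b had SDs of 0.194 to 0.335 within groups, and 1427186_a_at of Mef2a had SDs of 1.22 to 2.17. The latter read from 1.55 to 4.79 in NCSCs arrays alone, so that differences of a log2 unit lay within its replicate spread. Over the 16 arrays the correlation with 1451506_at was 0.67 to 0.91 for the other Mef2c probe sets and -0.42 to 0.09 for those of the paralogs, as a description over arrays that share their groups. Over the 12 arrays that are not Autonomic, 1437300_at of Mef2d gave 0.717 and 1421027_a_at of Mef2c 0.0785, so there the order was not one of Mef2c first.

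**Figure D2:**
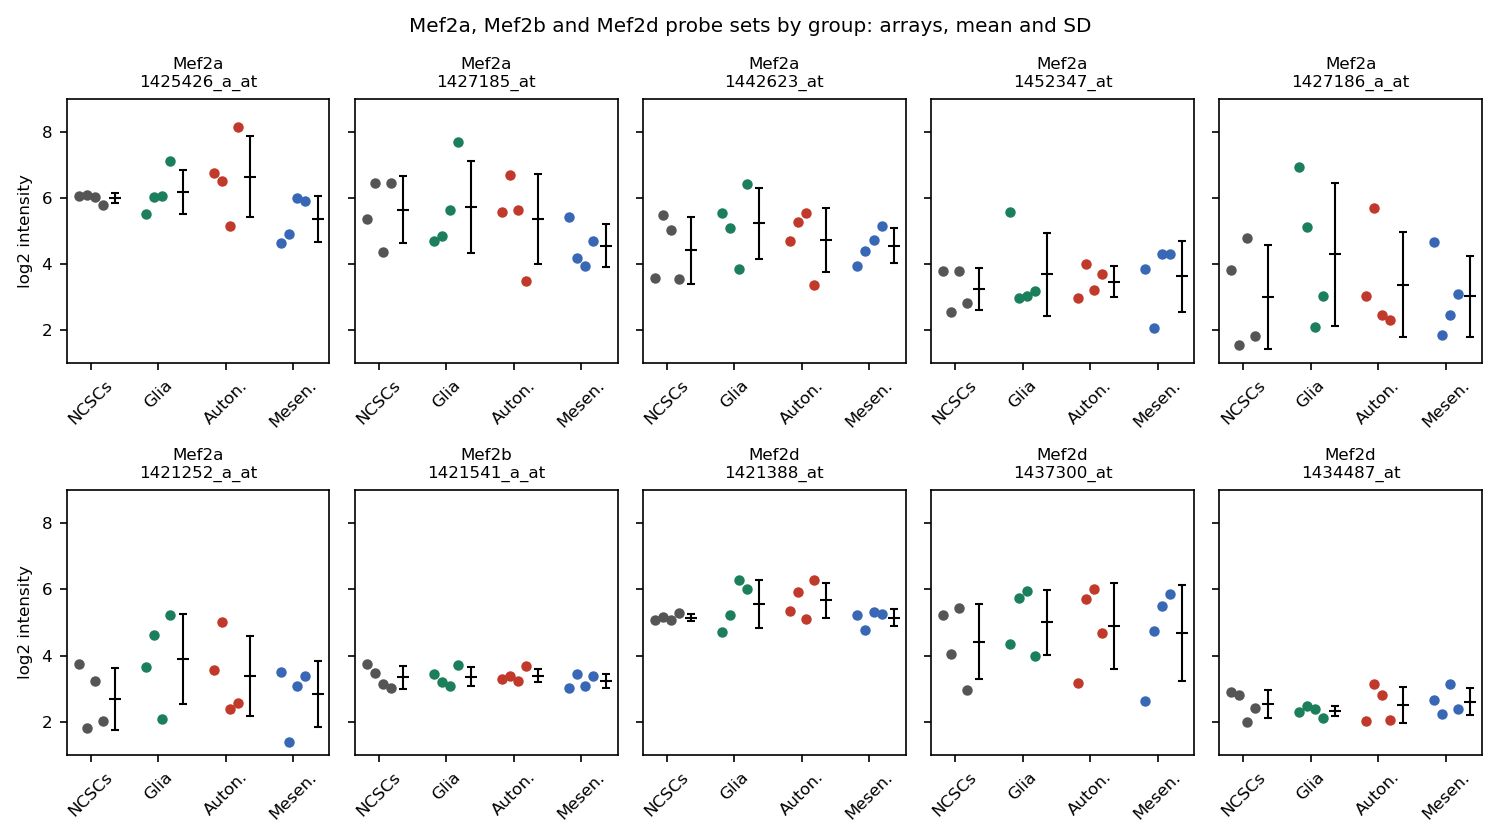
Log2 intensity of the 10 probe sets of Mef2a, Mef2b and Mef2d (panels) in the 4 groups, drawn as for Mef2c and on the same axis; points are arrays and bars are the mean with its SD (n = 4). Autonomic arrays overlap with NCSCs arrays in all 10 panels.

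Glia- and mesenchyme-primed cells were tested against unprimed cells and against each other. Mef2c was chosen on contrasts of Autonomic arrays with other arrays, not on differences among the groups compared here. Arrays of these groups still entered that choice, so the tests of Mef2c are not independent of it. None of the 15 probe sets passed in any of these 3 comparisons by limma at an adjusted p under 0.05, and 0 of 15 had an unadjusted p under 0.05 in each of them. Over all probe sets, 0.286% were called in Glia against NCSCs, 0% in Mesenchymal against NCSCs and 0.129% in Glia against Mesenchymal, so that no call among 15 is near the background.

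For Mef2c 1451506_at the difference of Glia from NCSCs arrays was 0.25 (SE 0.42, limma adjusted p = 0.914), with a 95% interval of -0.65 to 1.14. That of Mesenchymal from NCSCs arrays was 0.65 (SE 0.42, limma adjusted p = 0.783), with an interval of -0.25 to 1.55. Glia and Mesenchymal arrays differed by -0.40 (limma adjusted p = 0.923), with an interval of -1.30 to 0.50. For this probe set the intervals against NCSCs lay above the Autonomic difference of -3.98 and held changes near 2-fold. Mef2c was chosen as low in Autonomic against the other arrays, so this is a description and excludes nothing. The SE pools all groups, with SDs of 0.197 in Autonomic, 0.68 in NCSCs, 0.952 in Glia and 0.414 in Mesenchymal arrays. The low Autonomic spread thus enters these intervals and p-values. In fits of only the groups compared, the limma adjusted p was 0.911, 0.678 and 0.916 in the same order. For the dim 1421028_a_at the interval of Glia from NCSCs arrays, -1.56 to 0.11, holds its Autonomic difference of -1.23. The sign varied among the 5 Mef2c probe sets, with 2 below and 3 above 0 in both Glia and Mesenchymal against NCSCs arrays.

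Mef2a did not pass in glia-primed arrays. The estimates of its 6 probe sets, whose arrays overlapped between the groups, were above 0 in Glia against NCSCs (0.07 to 1.30) and in Glia against Mesenchymal arrays (0.06 to 1.27), and they share 1 gene and the same arrays. The lowest adjusted p among them was 0.694 and 0.847 in these comparisons. For 1425426_a_at the difference of Glia from NCSCs arrays was 0.19, with a 95% interval of -0.92 to 1.30, and it was -0.12 without Glia replicate 4. That of Mesenchymal from NCSCs arrays was -0.63, with an interval of -1.74 to 0.48.

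For Mef2d 1421388_at the difference of Glia from NCSCs arrays was 0.41 (SE 0.32, limma adjusted p = 0.774, interval -0.28 to 1.10). Mesenchymal and NCSCs arrays had means of 5.15 each, with an interval of the difference from -0.69 to 0.69. For Mef2b the intervals were the narrowest of the 4 brightest probe sets, at -0.40 to 0.45 in Glia and -0.53 to 0.32 in Mesenchymal against NCSCs arrays. At the level of the array median a change of RNA may be compressed, and whether Mef2b was above background was not measured.

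**Figure D3:**
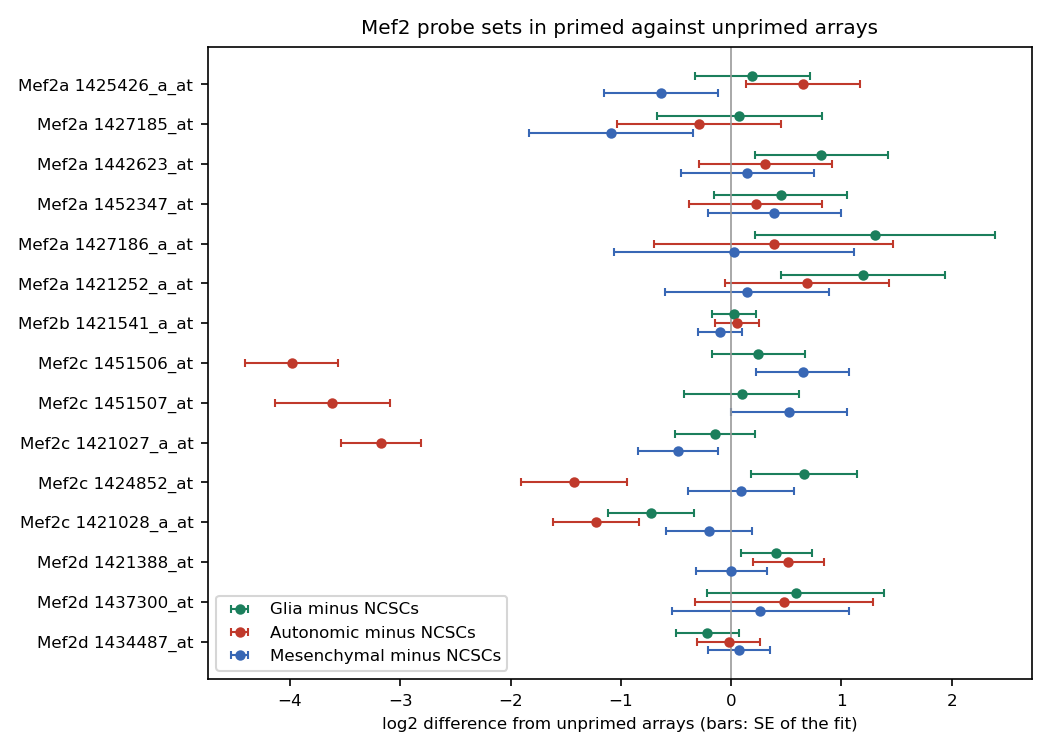
Log2 difference of Glia, Autonomic and Mesenchymal from NCSCs arrays for the 15 Mef2 probe sets (rows); points are estimates and bars their SE from the fit over 16 arrays. The Autonomic points of the 5 Mef2c rows lie between -3.98 and -1.23, and those of the other 10 rows between -0.29 and 0.69.

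Genes that act around MEF2, and crest markers beside them, were read from 6 lists holding 91 measured genes. In all, 4 of the 91 (4.4%) passed in Glia against NCSCs arrays, where 0.511% of all 18194 genes did, and 2 (2.2%) in Autonomic against NCSCs arrays, where 0.434% did. Ngfr, from the crest marker list, was 1 of the calls in each of these comparisons. None passed in Mesenchymal against NCSCs arrays (0.022% of genes, with 1401 at an unadjusted p under 0.05). In Autonomic against Mesenchymal arrays 1 passed (background 0.346%), in Glia against Mesenchymal arrays 1 (0.225%), and in Autonomic against Glia arrays 0 (0.011% of genes, with 1135 at an unadjusted p under 0.05). The Gapdh 3' to 5' ratio was lower in NCSCs arrays (2.35) than in Glia and Autonomic arrays (2.95 and 2.85), and with it as a covariate none of the calls against NCSCs arrays was left among the 91 genes. Since the ratio differs between these groups, the covariate also widens the SE of such differences. A lost call therefore cannot tell the ratio and the priming apart. Over all genes, 30 were then called in Glia arrays in place of 93, and 33 in Autonomic arrays in place of 79. The calls against Mesenchymal arrays were those of Ngfr and passed with the covariate too.

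Among repressors of MEF2, 7 of 9 were measured. Cabin1, a calcineurin-binding protein that recruits deacetylases to MEF2, fell in Glia arrays from 5.84 ± 0.6 to 4.14 ± 0.139 (SD, n = 4), that is by -1.70 on the log2 scale (SE 0.32; limma adjusted p = 0.0335). Its Mesenchymal mean was 4.22 ± 0.465 and its Autonomic mean 4.94 ± 0.519. With the Gapdh ratio as a covariate the change was -1.54 (limma adjusted p = 0.22). The call was also lost with the replicate number as a block and without any of 7 single arrays. The class IIa deacetylases Hdac4, Hdac5, Hdac7 and Hdac9 did not pass in any comparison, with differences of Autonomic from NCSCs arrays of -0.07, -0.31, 0.54 and -0.08.

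Of 20 coactivators and partner factors, 0 passed in any comparison. The median difference of Autonomic from NCSCs arrays was 0.03, against 0.00 over all genes. The brightest were Tead1, a DNA-binding partner of the Hippo pathway, at 0.42, and Crebbp, an acetyltransferase, at -0.33.

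Of 20 kinases and phosphatases that act on MEF2 or on its deacetylases, 1 passed. Map2k6, which activates p38 MAP kinases, fell in Glia arrays from 7.23 ± 0.554 to 4.84 ± 0.436 (SD, n = 4), that is by -2.39 on the log2 scale (SE 0.47; limma adjusted p = 0.0393). Its Autonomic arrays averaged 5.61 ± 0.668 and its Mesenchymal arrays 5.98 ± 1.02, which did not pass. With the Gapdh ratio as a covariate the change was -1.80 (limma adjusted p = 0.318), and the call was also lost without any of 10 single arrays. The calcineurin subunit genes Ppp3ca, Ppp3cb, Ppp3cc and Ppp3r1 lay between -0.35 and 0.27 in Autonomic against NCSCs arrays.

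Of 30 genes described as direct MEF2 targets, 28 were measured and 1 passed. Rhob, a small GTPase, was higher in glia- and neuron-primed arrays: it averaged 9.54 ± 0.471 (SD, n = 4) in NCSCs, 11.36 ± 0.079 in Glia and 11.04 ± 0.496 in Autonomic arrays. Its log2 change was 1.83 in Glia (SE 0.27, limma adjusted p = 0.00707) and 1.50 in Autonomic arrays (limma adjusted p = 0.0259), and the latter call was lost with the replicate number as a block and without any of 6 single arrays. With the Gapdh ratio as a covariate the changes were 1.82 (SE 0.37) and 1.50 (SE 0.35), with limma adjusted p of 0.0877 and 0.137, so the sizes stayed while the SE in Glia arrays grew. Mesenchymal arrays averaged 10.87 ± 0.324 and did not pass. The median difference of the 28 targets in Autonomic against NCSCs arrays was 0.12, with 10 of 28 below 0. In NCSCs arrays 15 of the 28 averaged below the array median and 4 lay more than 2 log2 units above it, so a fall could not have been measured for many of them.

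Other targets were singled out after their values were seen. Jun, an AP-1 subunit with the consensus in its promoter window, averaged 8.63 ± 0.373 (SD, n = 4) in NCSCs and 8.47 ± 0.734 in Autonomic arrays, which overlapped. Klf2, a Kruppel-like factor with the consensus too, averaged 3.91 ± 0.401 and 4.05 ± 0.738. The crest targets Hand2 and Dlx5, which pattern the jaw, averaged 4.00 ± 0.248 and 2.39 ± 0.141 in Autonomic arrays, within 0.17 log2 units of NCSCs arrays. Mitf, the melanocyte regulator, averaged 3.17 ± 0.649 in NCSCs and 2.13 ± 0.396 in Autonomic arrays, near and below the array median. It did not pass, and its Mesenchymal mean was 2.16 ± 0.346.

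Of 12 genes described upstream of Mef2c in the crest, 11 were measured and 0 passed in any comparison. Sox10, a crest transcription factor, averaged 7.85 ± 1.01 (SD, n = 4) in NCSCs, 7.59 ± 0.698 in Glia, 7.22 ± 1.95 in Autonomic and 8.84 ± 0.58 in Mesenchymal arrays. Its Autonomic arrays ran from 4.30 to 8.27 and overlapped with NCSCs arrays. Gna11, a G protein subunit that relays endothelin signals, differed by -0.53 in Autonomic against NCSCs arrays. The median of the 11 was -0.36 in Autonomic and 0.20 in Mesenchymal against NCSCs arrays, where it was 0.00 and -0.01 over all genes. Autonomic arrays also spread widely in Tfap2a (4.39 to 7.70) and Ets1 (5.18 to 8.15), so single low arrays weigh on the Autonomic differences of these genes.

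The crest marker list, 12 of 13 measured, had 1 member that passed. Ngfr, the low-affinity neurotrophin receptor, averaged 9.07 ± 0.508 (SD, n = 4) in NCSCs, 9.39 ± 0.32 in Mesenchymal, 7.20 ± 0.644 in Glia and 6.32 ± 0.734 in Autonomic arrays. It fell in Autonomic arrays against both NCSCs (-2.75, limma adjusted p = 0.00554) and Mesenchymal arrays (-3.07, limma adjusted p = 0.00356). It was also lower in Glia arrays, in which Mef2c 1451506_at averaged 7.44, by -1.87 from NCSCs (limma adjusted p = 0.0479) and by -2.19 from Mesenchymal arrays (limma adjusted p = 0.0307). These 2 calls were lost with the replicate number as a block, and without any of 14 and of 8 single arrays. The call of Glia from NCSCs arrays was also lost when each gene was read by its probe set with the highest variance. With the Gapdh ratio as a covariate the changes from NCSCs were -2.50 in Autonomic (limma adjusted p = 0.0723) and -1.57 in Glia arrays (limma adjusted p = 0.315). The other crest markers did not pass, and 10 of the 12 were below 0 in Autonomic against NCSCs arrays. Their median was -0.42, against 0.00 over all genes. Autonomic arrays ran from 4.30 to 8.27 in Sox10, 4.39 to 7.70 in Tfap2a and 5.18 to 8.15 in Ets1. Single low arrays therefore weigh on the signs of these genes. Sox9 differed from them, with all Autonomic arrays (5.11 to 7.11) below all NCSCs arrays (7.18 to 7.69), as in 2.93% of all probe sets. Its Glia arrays (5.35 to 6.86) were below NCSCs arrays too. The list was not tested as a whole, so no general fall of crest markers can be read from these signs.

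**Figure D4:**
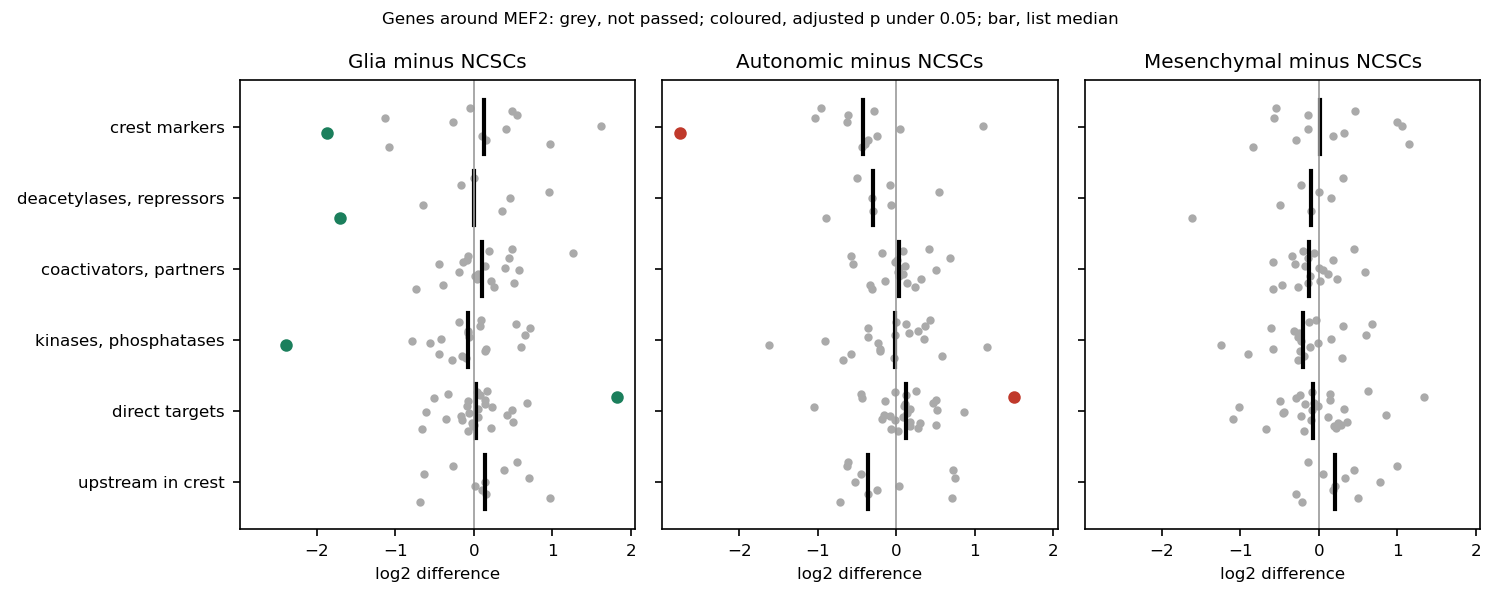
Log2 difference of Glia, Autonomic and Mesenchymal from NCSCs arrays (panels) for genes of the 6 lists, which include crest markers (rows). Grey points did not pass, larger coloured points passed at an adjusted p under 0.05, and the black bar is the list median. The coloured points are Ngfr, Cabin1, Map2k6 and Rhob in Glia arrays and Ngfr and Rhob in Autonomic arrays, and no point is coloured in Mesenchymal arrays; none of these 6 calls was left with the Gapdh ratio as a covariate.

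Mef2c is also expressed in muscle, endothelium, macrophages and B lymphocytes, so the markers of these cells were read in the same arrays. Of 8 endothelial, 8 macrophage, 4 B lymphocyte and 10 skeletal muscle markers measured, 0 had a group mean more than 2 log2 units above the array median in any group. Endothelial markers such as Kdr averaged 2.02 to 2.62 per array in NCSCs and 1.91 to 2.42 in Autonomic arrays, with overlap. Macrophage markers averaged 2.26 to 2.39 and 2.42 to 2.70, which did not overlap but lay below the array medians. Glia (2.36 to 2.76) and Mesenchymal arrays (2.48 to 2.75) were at a level similar to Autonomic arrays. By the log2 of their summed intensities, NCSCs (5.40 to 5.53) and Autonomic arrays (5.51 to 5.84) overlapped. The part of macrophage markers in the Mef2c result was not tested. The log2 of the summed intensities of B lymphocyte markers was 4.07 to 4.46 and 4.19 to 4.81, and that of skeletal muscle markers 6.25 to 6.92 and 6.24 to 6.48. Of 8 cardiac markers 2 exceeded that level in Glia and Autonomic arrays, with Tnnt2 at 6.92 and 6.07, and the list averaged 2.69 to 3.68 in NCSCs and 2.55 to 3.66 in Autonomic arrays. Melanocyte markers, 6 measured, averaged 2.21 to 2.40 and 1.99 to 2.30. Of 6 chondrocyte markers only the collagen Col2a1 was bright in every group, with list averages of 3.27 to 4.02 and 3.64 to 4.04. No list of these 7 had a member that passed in Autonomic against NCSCs arrays except that of chondrocytes, in which Col2a1 rose by 2.43 (SE 0.40; limma adjusted p = 0.0149), from 8.20 to 10.64. Col2a1 also averaged 10.30 in Glia arrays (2.10 above NCSCs, limma adjusted p = 0.0342) and 10.53 in Mesenchymal arrays, which did not pass. Its higher level was thus not particular to Autonomic arrays. With the Gapdh ratio as a covariate its limma adjusted p was 0.0993 in Autonomic and 0.183 in Glia arrays. The part of Col2a1-expressing cells in the Mef2c result was not tested.

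The genes whose pattern was most like that of Mef2c were ranked by Pearson correlation with 1451506_at over the 16 arrays, among 7680 genes with a range above 2 log2 units. Mycn, a proto-oncogene of proliferating progenitors, led with r = 0.949 and a Spearman coefficient of 0.847. Mycn averaged 9.11 ± 0.332 (SD, n = 4) in NCSCs, 8.83 ± 0.584 in Glia, 9.24 ± 0.354 in Mesenchymal and 7.03 ± 0.444 in Autonomic arrays, at 6.67 to 7.68 against 8.19 to 9.60 in the other arrays. Its correlation with Mef2c was 0.683 over the 12 arrays that are not Autonomic and 0.695 with group means removed. Since Mycn was picked over arrays that include these 12, these values are part of its choice and no support for it.

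Next were Ulk1, a kinase that starts autophagy (r = 0.866), the zinc finger gene Zfp503 (r = 0.824), the adenylyl cyclase Adcy6 (r = 0.808), the myelin enzyme gene Cnp (r = 0.805) and the chloride and proton exchanger Clcn6 (r = 0.783). Over the 12 arrays that are not Autonomic they gave 0.448, 0.382, 0.515, 0.165 and 0.308. The highest 1% of the ranked genes lay above 0.611. The opposite pattern was shown by Vat1l (r = -0.891), the glycosyltransferase Mgat1 (r = -0.864) and Vgf, a secreted neuropeptide precursor (r = -0.861). Over the 12 arrays these gave -0.431, -0.754 and -0.259. These correlations describe 16 arrays that share groups, and the list of names depends on the probe set: with the 4 other Mef2c probe sets, 2, 3, 1 and 1 of the 6 were again among the leading 6, and over the 12 arrays that are not Autonomic none was.

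**Figure D5:**
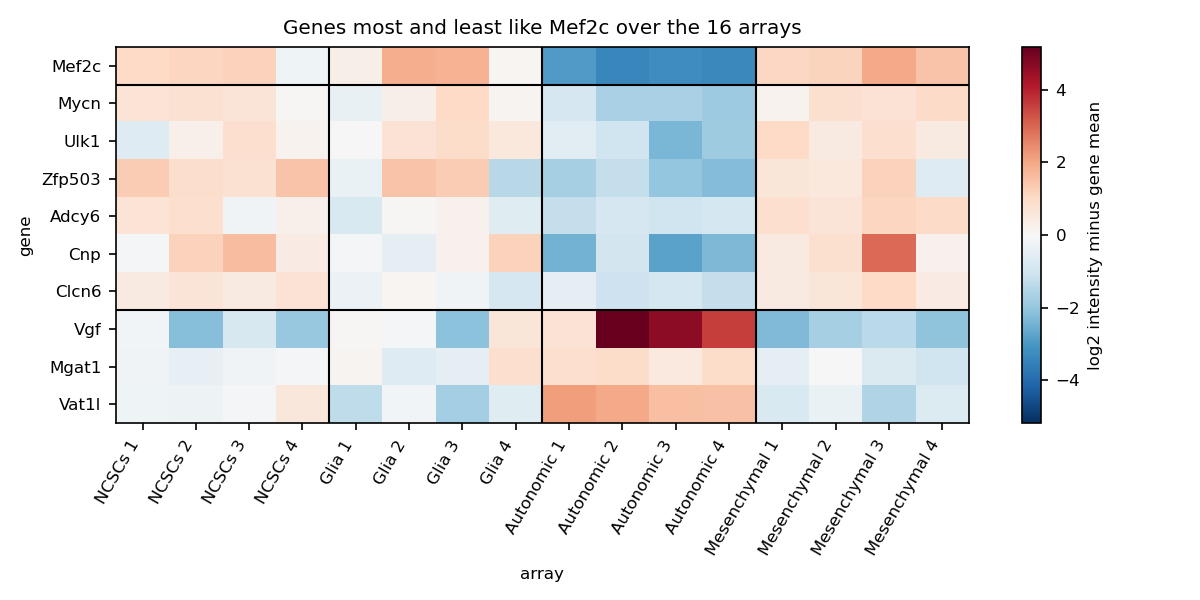
Log2 intensity minus the gene's mean over 16 arrays (colour) for Mef2c (1451506_at), the 6 genes with the highest and the 3 with the lowest correlation with it (rows), by array (columns, 4 per group). Mef2c and the 6 genes are below their means in all 4 Autonomic arrays, and the 3 genes are above them there, which the ranking itself favours.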

How the data were processed

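RNA of 16 mouse crest stem cell cultures was measured on Affymetrix arrays. Each array has 1 deposited intensity per probe set, made by the authors with RMA (background correction, equalised distributions, probe set summary), per the submitters' processing notes, which name no version. The intensities run from 1.49 to 31600, with array medians of 8.26 to 8.85, lower than RMA usually gives. Whether another step was applied is not known, and folds against dim values rest on this scale. The values are linear, so they were put on a log2 scale without an offset or another normalization. Groups and replicate numbers come from sample titles.

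Of the probe sets, 34958 carry 1 gene symbol in the platform annotation, 932 several and 9211 none. Older symbols were replaced by those of the RefSeq gene table (GRCm38.p6) with the same Entrez identifier (99.4% matched). A group-means model over the 16 arrays was fitted with limma 3.58.1 (lmFit and eBayes, R 4.3.3), two-sided, with Benjamini-Hochberg adjustment and calls at an adjusted p under 0.05. Mef2 probe sets were taken from a fit of all 45101 probe sets, and other genes from a fit of 18194 genes, each by its brightest probe set. The code was tested on simulated data.

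Mef2 genes, gene lists and tests were chosen with earlier results of these data known. Contrasts with Autonomic arrays chose Mef2c and are given without a test for the Mef2 genes. Named genes are all Mef2 probe sets, the 6 most and 3 least correlated with Mef2c, and of each list up to 4 called members or else the 2 brightest; others are said to be chosen after their values were seen or stand as members of their group. Arrays have no read depth, and precision is limited by their number. Alternatives were the replicate block, other scalings, an offset of 16, brighter probe sets only, other eBayes settings, array weights, fits of the compared groups, 1 probe set a gene, the Gapdh ratio as a covariate (for the lists chosen after seeing the data), other probe sets for the lists, and leaving out each array.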

Additional observations from a re-analysis of the deposited data

Results flagged for a closer look

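In 4 of 60 groups of 4 arrays over the 15 Mef2 probe sets, 1 array lay far from the other 3 by Dixon's criterion, which chance alone does in about 1 in 20 groups. Mef2c 1451506_at read 6.18 in NCSCs replicate 4 against 7.45 to 7.61 in the other NCSCs arrays, and without it the difference of Autonomic from NCSCs arrays was -4.32. Mef2a 1425426_a_at read 5.78 in the same array against 6.04 to 6.08. Mef2a 1452347_at read 5.57 in Glia replicate 1 against 2.96 to 3.19. Mef2d 1421388_at read 4.77 in Mesenchymal replicate 2 against 5.24 to 5.32.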

How the results depend on the processing

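In the 27 alternatives, 0 Mef2 probe sets were called in each of the 3 tested comparisons, also without each array in turn (0 to 0). All 131 recomputed differences of Mef2c probe sets between Autonomic and NCSCs arrays were below 0; for 1451506_at they ran from -4.50 with the Gapdh ratio as a covariate to -2.70 with 16 added. Centring on 12 housekeeping genes moved the median of all probe sets by 0.20 in Autonomic and 0.28 in Glia against NCSCs arrays, and the Mef2c difference was then -3.79. Signs of small differences that did not pass turned in some settings, and the cause was not tested. In Glia against NCSCs arrays, Mef2b gave -0.0043 with repeated quantile normalization, -0.030 with cyclic loess and -0.043 with array weights, and Mef2c gave -0.37 with the Gapdh ratio as a covariate. In Mesenchymal against NCSCs arrays the Gapdh ratio gave 0.27 for Mef2a, 0.22 for Mef2b and 0.36 for Mef2d, and Mef2d gave 0.083 with quantile normalization, 0.10 with cyclic loess, 0.0030 with 16 added and 0.011 with array weights. Without single arrays, Glia against NCSCs ran from -0.12 to 0.42 for Mef2a, -0.10 to 0.16 for Mef2b and -0.093 to 0.55 for Mef2c, and Mesenchymal against NCSCs from -0.21 to 0.033 for Mef2b and -0.058 to 0.13 for Mef2d.

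The genes of the 6 lists, crest markers included, gave 8 calls over the 6 comparisons, 4 with the replicate block, 2 with the Gapdh ratio as a covariate (chosen after seeing the data), and 4 to 8 without single arrays. Same-numbered arrays of different groups had correlations of deviations of -0.064 to 0.061 (24 pairs, 0 above 0.1), and 5 of 16 arrays correlated best with their own number. No pairing by number was seen, but whether same-numbered arrays share an origin is not known. The block changed no Mef2 call. Of the 6 genes most like Mef2c, 2 stayed among the leading 6 by Spearman, 0 over the 12 other arrays, and 2, 3, 1 and 1 with the Mef2c probe sets 1451507_at, 1421027_a_at, 1424852_at and 1421028_a_at.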

Other observations

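The probe set shared by Borcs8 and Mef2b, 1429079_a_at, averaged 5.61 ± 0.458 (SD, n = 4) in NCSCs, 4.65 ± 0.69 in Glia, 5.03 ± 0.729 in Autonomic and 5.01 ± 0.251 in Mesenchymal arrays. Its difference of Glia from NCSCs arrays was -0.96 (SE 0.38, limma adjusted p = 0.45) and did not pass. Its signal cannot be assigned to either gene.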
